A study of Saccharomyces cerevisiae with 4 samples.

Results

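The cytosolic ribosomal protein genes of Saccharomyces cerevisiae were described in sorted spores. The genes were taken as every row of the deposited table whose standard name is RPL or RPS with a number, together with RPP0, RPP1A, RPP1B, RPP2A and RPP2B, which gave 137 genes of the 7132 features listed. They comprise 76 genes of the large subunit (RPL), 56 genes of the small subunit (RPS) and 5 genes of the acidic stalk of the large subunit (RPP). In all, 118 of them form 59 pairs of A and B paralogs, and 19 are single genes. The spores came from an SK1 diploid in which both copies of IME1, the inducer of meiosis, are driven by the copper-responsive CUP1 promoter, and in which a cassette at MATa carries mCherry under the GPD1 promoter, whose product stays with the spore that inherits it, and the hygromycin resistance gene hph. All groups share this diploid, this cassette in 1 of the homologs and 7 days of sporulation after copper was added. Red spores, which hold the cassette and are MATa, and non-red spores, which are MATα, were sorted from each of 2 sporulations, and the 4 sorted populations gave 1 library each. The study calls the sporulations replicates 1 and 2, so that the red and the non-red library of a replicate share a culture.

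Each cytosolic ribosome is built from ribosomal RNA and a set of proteins, most of which are present in a single copy. In budding yeast most of these proteins are encoded by A and B genes that were retained after an ancient duplication of the genome, and a large fraction of the genes carry introns. In growing cells their promoters are bound by Rap1, Fhl1, Ifh1 and Sfp1 and their transcription follows nutrient supply and the TOR and protein kinase A pathways. The genes are repressed in starved cells and have been described as being induced again late in sporulation.

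The reads summed to 27468051 and 25493760 in red and non-red spores of replicate 2, and to 35937755 and 45697828 in replicate 1. The cassette checked the sort: hph had 67902 and 71566 reads in the red libraries and 972 and 4348 in the non-red libraries. The strain descriptions of the samples do not follow the color, since both red samples and non-red replicate 2 are described as MATα and non-red replicate 1 as MATa, and the color in the titles was used. The spore wall gene SPS100 had between 2151 and 3238 CPM (reads scaled to the TMM-normalized library size), the 14 other genes of spore formation summed to between 207 and 347 CPM, and 10 genes of growing budding cells summed to between 536 and 637 CPM over the 4 libraries. Of the 15 spore formation genes 1 was at 0 in some library, and none of the 10 genes of growing cells was. Transcripts of both lists were thus present in every library.

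A few sequences bear on how the values can be read. RPL41A and RPL41B encode the shortest ribosomal protein, of the large subunit, and their coding sequences of 78 bases differ at 1 position, shown in capitals. Of the 50-base coding words of either gene 31.0% occur once in the genome, so reads within the coding bases of the 2 genes are hard to tell apart. Transcribed bases outside the coding sequence were not compared.
RPL41A (chrIV:130407-130484, minus strand, R64): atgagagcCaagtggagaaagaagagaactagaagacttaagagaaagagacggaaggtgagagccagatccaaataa
RPL41B (chrIV:221724-221801, minus strand, R64): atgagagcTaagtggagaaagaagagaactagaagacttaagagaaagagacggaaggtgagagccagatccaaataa

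The coding sequences of RPS29A and RPS29B, which encode a small zinc-binding protein of the small subunit, are both 171 bases long and differ at 14 positions, in capitals, so that any 50 bases of either gene occur once in the genome. They are shown because 1 library had almost no reads on RPS29A although the genes can be told apart by sequence.
RPS29A (chrXII:898651-898821, plus strand, R64): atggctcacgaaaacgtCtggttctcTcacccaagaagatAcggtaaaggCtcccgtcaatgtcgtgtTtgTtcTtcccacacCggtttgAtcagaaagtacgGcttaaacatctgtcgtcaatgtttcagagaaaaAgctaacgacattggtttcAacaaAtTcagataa
RPS29B (chrIV:340628-340798, minus strand, R64): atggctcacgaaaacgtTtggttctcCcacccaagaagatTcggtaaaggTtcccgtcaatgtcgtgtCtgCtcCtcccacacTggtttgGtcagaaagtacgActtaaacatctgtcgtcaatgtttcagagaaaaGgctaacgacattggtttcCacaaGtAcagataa

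RPL39, which lines the exit tunnel of the large subunit, lies on chromosome X with 1 intron. Of its 156 coding bases 150, in capitals, are also covered by an open reading frame of 102 codons on the opposite strand, and the gene was listed at 0 in 3 of the 4 libraries.
RPL39 (chrX:75933-76474 with its intron, plus strand, R64, coding bases): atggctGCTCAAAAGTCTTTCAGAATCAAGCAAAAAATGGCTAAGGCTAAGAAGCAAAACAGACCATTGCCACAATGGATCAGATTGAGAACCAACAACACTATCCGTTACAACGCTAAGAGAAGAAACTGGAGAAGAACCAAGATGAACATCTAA

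The core of the Rap1 motif, written CCCATAC or CCCGTAC and searched on both strands without overlap between the spellings in the 500 bases before each start codon, was found for 46 of the 137 genes (33.6%) and for 323 of all 6008 promoters (5.38%). A match to these letters is a description and not a binding site. Matches with 10 bases on each side, with the core in capitals, are given for 5 of these genes, in the direction of the gene. They are examples, and RPS16A and other genes described here have further matches. The RPS16A match shown lies between divergent genes and is also counted for RPL13B, at -421. RPL13A with RPS16B, and RPL39 with RPS22A, share matches in the same way.
RPS16A, first base of the core at -306: catattggcaCCCATACattataaaat
RPP1B, at -273: ttcctttaaaCCCATACatatcttaca
RPL41A, at -301: ctgatgcgctCCCGTACacctttgaca
RPL41B, at -343: ggttaccacaCCCGTACacccttatct
RPL36B, at -313: tgtattttcaCCCGTACatccacggat

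Ribosomal protein genes took a smaller part of the library in replicate 2 than in replicate 1. They received 1.83% of reads in red spores and 1.52% in non-red spores of replicate 2, against 4.91% in red and 5.38% in non-red spores of replicate 1. The 95% Wilson intervals are 1.83 to 1.84%, 1.51 to 1.52%, 4.91 to 4.92% and 5.37 to 5.38%, and cover counting error only. The mean of the replicate 2 libraries was 0.325 times that of the replicate 1 libraries, 0.373 times within red and 0.282 times within non-red spores. Small subunit genes took 0.838% and 0.687% of reads in red and non-red spores of replicate 2, against 2.27% and 2.42% in replicate 1. Stalk genes took 0.0727% and 0.0439% in replicate 2, against 0.214% and 0.244% in replicate 1. These values are shares of reads, so they do not show whether the amount of these transcripts fell or that of others rose. In bulk samples fewer spores with these transcripts and less transcript per spore cannot be told apart either.

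**Figure D1:**
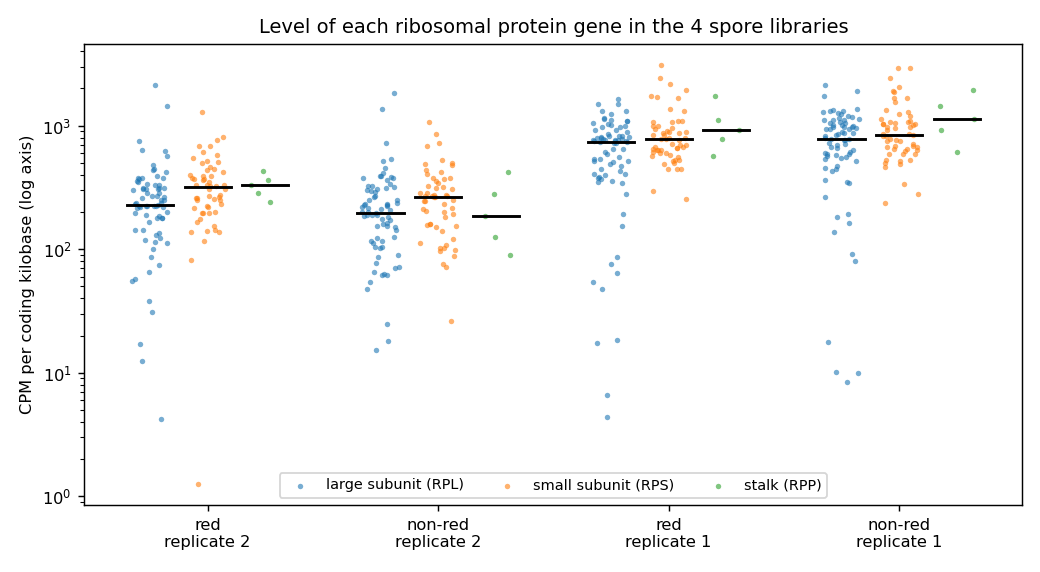
Level of each ribosomal protein gene in CPM per coding kilobase (log axis) in red and non-red spores of replicate 2 and of replicate 1, with 1 point per gene, colored by subunit, and the median of each subunit as a bar. Values of 0 (RPL36B in both replicate 2 libraries and RPL39 in 3 libraries) are not drawn. The medians of all 3 classes lie lower in the replicate 2 libraries.

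Levels were compared between genes as CPM per kilobase of coding sequence. The median over genes was 262 and 215 CPM per kilobase in red and non-red spores of replicate 2, and 756 and 832 in replicate 1. The median of the mean level over the libraries was 545 for small subunit genes, 490 for large subunit genes and 649 for the 5 stalk genes. With the stalk genes counted in the large subunit, the log2 ratio of the small to the large subunit median was 0.40 and 0.44 in red and non-red spores of replicate 2, and 0.03 and 0.10 in replicate 1 (mean 0.25 ± 0.21, SD over 4 libraries). The ratio was thus higher in both replicate 2 libraries, a difference that was not tested. Coding bases of 17 genes are overlapped by an open reading frame of at least 100 codons on the opposite strand. Of these genes only RPS2 and RPS15 are in the small subunit. The part of such frames in the ratio was not tested. Across the 137 genes the level had a Spearman's rho of -0.18 with coding length, a description across genes that are not independent replicates.

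The genes with the highest levels per length in the small subunit were RPS30A, RPS31 and RPS25A. RPS30A, whose product sits near the decoding center, had 1299 and 1073 CPM per kilobase in red and non-red spores of replicate 2, and 3099 and 2940 in replicate 1. RPS31, which encodes a ribosomal protein fused to ubiquitin, had 681 and 523 in replicate 2, and 2418 and 2932 in replicate 1. The replicates of both genes did not overlap. In the large subunit the highest levels per length were those of RPL41B, RPL41A and RPL32. The coding sequences of both RPL41 genes are only 78 bases, so this measure is sensitive to the length used for them. Before division by length, RPL32 had 249 and 204 CPM in red and non-red spores of replicate 2, and 583 and 844 in replicate 1. RPL41B then had fewer, 165 and 143 CPM in replicate 2, and 129 and 150 in replicate 1. RPL41B had 2117 and 1836 CPM per kilobase in red and non-red spores of replicate 2, and 1651 and 1925 in replicate 1, with the replicates overlapping. RPL41A had 1438 and 1358 in replicate 2, and 1314 and 1308 in replicate 1. RPL32, which has no intron, had 634 and 519 in replicate 2, and 1484 and 2147 in replicate 1. Means over the libraries were 2103 ± 1065 for RPS30A, 1882 ± 194 for RPL41B, 1638 ± 1217 for RPS31, 1531 ± 894 for RPS25A, 1355 ± 60.3 for RPL41A and 1196 ± 766 for RPL32 (SD, n = 4 libraries), so that neighbors in this order lie within their spread, which includes the difference between the replicates.

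The lowest levels were all in the large subunit. RPL36B was listed at 0 in both libraries of replicate 2, and 202 and 135.5 reads in red and non-red spores of replicate 1. RPL43A had 33 and 110 reads in red and non-red spores of replicate 2, and 174 and 103 in replicate 1. RPL39 was listed at 0 in 3 libraries and had 266 reads in red spores of replicate 1, and it did not pass the filter on low counts. RPL22A had 177 and 171 reads in red and non-red spores of replicate 2, and 58 and 162 in replicate 1. In the small subunit the lowest levels were those of RPS9A, RPS28B and RPS7A, at 161 ± 97.9, 222 ± 181 and 302 ± 208 CPM per kilobase (SD, n = 4 libraries). Of the 10 genes with the lowest mean level, 8 had an open reading frame of at least 100 codons on the opposite strand over part of their coding bases, compared with 17 of all 137 genes. This frame covered 99.3% of the coding bases of RPL43A, 96.7% of RPL22A, 87.96% of RPL33A and 89.1% of RPL28. It also covered 100% of RPS15, whose level of 1108 CPM per kilobase was among the highest. Whether the counts used strand is not given in the sources used here, 1085 listed features were not matched to coordinates, and the part of overlapping features in these low counts was not tested.

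Replicate 2 was compared with replicate 1 in the same model that compares the colors, over 6140 genes. Of the 136 ribosomal protein genes that passed the filter, edgeR called 121 lower in replicate 2 by a likelihood ratio test, with Benjamini-Hochberg adjusted p (the false discovery rate, FDR) below 0.05, and 0 higher. Of all genes tested 26.1% were called, 13.9% lower and 12.2% higher. At an unadjusted p under 0.05, 126 ribosomal protein genes were lower and 0 higher (34.9% of all genes tested had such a p in either direction and 18.3% were lower), and DESeq2 likewise called none of them higher. The median log2 fold change of the 136 genes was -1.65, compared with -0.02 over all genes tested, and it was -1.45 within red and -1.80 within non-red spores. CPM were lower in both replicate 2 libraries than in both replicate 1 libraries for 127 of the 136 genes (31.1% of all genes tested) and higher for 3 (30.9%). Because each replicate is a single culture, these p-values measure the spread between libraries and not between cultures, and sequencing depth differs in the same direction. Summed CPM of the 15 spore formation genes were 3114 and 3585 in red and non-red spores of replicate 2, and 2357 and 2576 in replicate 1, with 1 of 14 genes tested called higher and none lower. Most of this sum was SPS100, which was not called (FDR 0.305 in edgeR), and the 14 other genes summed to 346 and 347 CPM in replicate 2, and 207 and 278 CPM in replicate 1. Those of the 10 genes of growing cells were 637 and 536 in replicate 2, and 545 and 606 in replicate 1, with none called. The part of culture, sort, depth and cell makeup in the difference was not tested.

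**Figure D2:**
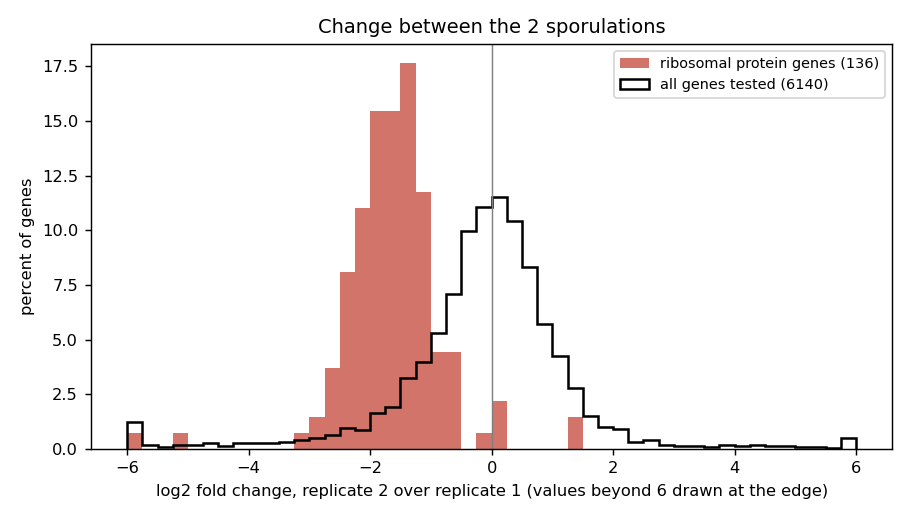
Distribution of the log2 fold change, replicate 2 over replicate 1, for the 136 ribosomal protein genes tested (filled) and for all 6140 genes tested (line), in percent of genes, with values beyond 6 drawn at the edge. The ribosomal protein genes center on a median of -1.65 and all genes on -0.02.

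Both subunits and the stalk were lower. In the large subunit 64 of 75 genes tested were called lower (median -1.62), in the small subunit 52 of 56 (median -1.63), and in the stalk 5 of 5 (median -1.98). Genes with an intron had 78 of 88 called lower and a median of -1.49, and genes without an intron 43 of 48 and a median of -1.90. A paralogs and B paralogs had 52 of 59 called each, with medians of -1.59 and -1.58, and single genes 17 of 18 with a median of -1.997. Genes with a match to the Rap1 core had 40 of 45 called and a median of -1.49, and genes without a match 81 of 91 and a median of -1.67. Genes with an opposite-strand frame over at least 80% of their coding bases had 3 of 7 called and a median of -0.58. The other genes had 118 of 129 called and a median of -1.67. These differences between classes were not tested.

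The gene with the smallest p was RPS0A (YGR214W, chrVII:920575-921788, plus strand, 1 intron), which encodes a protein needed for maturation of the small subunit rRNA. It had 104 and 82.7 CPM in red and non-red spores of replicate 2, and 808 and 939 CPM in replicate 1. The replicates were well apart, with a log2 fold change of -3.23 ± 0.39 (SD over the 2 colors) and an FDR of 8.04e-27 in edgeR. Its paralog RPS0B had 149 and 161 CPM in red and non-red spores of replicate 2, and 501 and 597 CPM in replicate 1 (-1.82). RPS12, a small subunit protein of the beak, had 94.4 and 68.5 CPM in replicate 2, and 594 and 677 CPM in replicate 1 (-2.98, FDR 3.72e-22). RPS20, a small subunit protein of the head, had 144 and 100 CPM in replicate 2, and 638 and 750 CPM in replicate 1. The log2 fold changes of the other small subunit genes in this group were -2.16 for RPS15 and -2.43 for RPS16A. In the large subunit, RPL26B, whose product lies near the exit of the peptide tunnel, had 75.02 and 33.4 CPM in replicate 2, and 421 and 362 CPM in replicate 1 (-2.96, FDR 1.96e-16). RPL7A and RPL21A had log2 fold changes of -2.38 and -2.47, and the unique part of the RPL7A coding sequence is small, with under 50% of its or its paralog's 50-base words found once in the genome. In each of these genes both replicate 2 libraries were below both replicate 1 libraries.

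The stalk recruits the translational GTPases to the large subunit, with RPP0 as its base and P1 and P2 proteins as its arms. RPP0 had 267 and 119 CPM in red and non-red spores of replicate 2, and 737 and 861 CPM in replicate 1. RPP2B had 143 and 93.4 CPM in replicate 2, and 573 and 648 CPM in replicate 1. RPP1A had 78.0 and 135 CPM in replicate 2, and 353 and 463 CPM in replicate 1. RPP1B had 116 and 59.1 CPM in replicate 2, and 295 and 362 CPM in replicate 1, and RPP2A had 106 and 28.7 CPM in replicate 2, and 181 and 197 CPM in replicate 1. All 5 genes were lower without overlap, with log2 fold changes between -2.40 and -1.77. Within replicate 2 the red library was the higher for RPP0, RPP1B, RPP2A and RPP2B and the lower for RPP1A.

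The ubiquitin fusion genes supply both a ribosomal protein and ubiquitin. RPS31 had 312 and 240 CPM in red and non-red spores of replicate 2, and 1110 and 1346 CPM in replicate 1 (-2.16, FDR 1.55e-12). RPL40A had 145 and 152 CPM in replicate 2, and 319 and 526 CPM in replicate 1 (-1.46), and RPL40B had 136 and 145 CPM in replicate 2, and 279 and 305 CPM in replicate 1 (-1.05). All 3 were called lower.

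**Figure D3:**
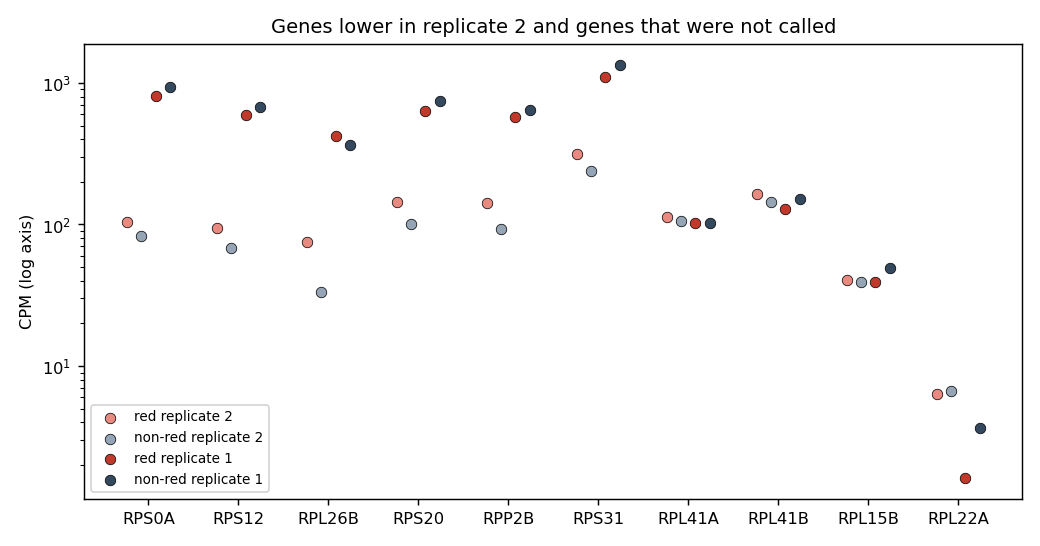
CPM (log axis) of 10 ribosomal protein genes in red and non-red spores of replicate 2 (light points) and of replicate 1 (dark points). RPS0A, RPS12, RPL26B, RPS20, RPP2B and RPS31 lie lower in replicate 2, and RPL41A, RPL41B, RPL15B and RPL22A, which were chosen after their values were seen, were not called.

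The test was not passed by 15 genes, which are named here after their values were seen. RPL41A had 112 and 106 CPM in red and non-red spores of replicate 2, and 103 and 102 CPM in replicate 1, and RPL41B had 165 and 143 CPM in replicate 2, and 129 and 150 CPM in replicate 1. Their log2 fold changes were 0.09 and 0.15, and the pair shares nearly all its coding sequence. RPL15B, a large subunit gene whose paralog had a log2 fold change of -2.02, had 40.2 and 39.0 CPM in replicate 2, and 39.5 and 49.1 CPM in replicate 1. RPS27A had a log2 fold change of 0.01. RPL22A and RPL33A had positive log2 fold changes (1.41 and 1.35), each with few reads and FDR of 0.644 and 0.643 in edgeR. RPL6B, RPL7B, RPL12A, RPL28, RPL43A, RPL43B, RPS23A and RPS25B had log2 fold changes between -1.59 and -0.56 and did not pass. The smallest negative log2 fold change outside RPL15B was -0.50, for RPS30B. Of the 15 genes, RPL7B, RPL12A, RPL15B, RPL22A, RPL28, RPL33A and RPL43A have an opposite-strand frame over 48.98 to 99.3% of their coding bases. The others of the 15 have none, and 17 of all 137 genes have one. RPL3, RPL8B, RPL12B and RPS15 have such a frame too and were called lower. The part of these frames in the changes was not tested. Of the 136 genes, 16 had a change within 2-fold, compared with 69.4% of all genes tested.

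RPL36B (YPL249C-A, chrXVI:75699-76239, minus strand, 1 intron) was listed at 0 in both replicate 2 libraries and was called lower there, with an FDR of 0.00975 in edgeR. No fold is given, because a 0 in this table of estimated counts may also come from how reads were assigned, as HYP2 and RPL39 were listed at 0 too, and this was not tested. RPS29A was the other gene with an extreme change, and it rested on 1 library, since it had 6 reads in red spores and 679 in non-red spores of replicate 2, and 3201 and 5092 reads in replicate 1.

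Genes that act on the family were taken from lists of regulators, chaperones and translation factors, to be read against the 26.1% of all genes called between the replicates. Of 10 regulators 3 were called and of 10 chaperones and assembly factors 2, shares near that background. CRF1, a corepressor of ribosomal protein genes, was higher in replicate 2 (372 and 311 CPM in red and non-red spores of replicate 2, and 160 and 156 CPM in replicate 1), as was HMO1, a high mobility group protein at their promoters (log2 fold change 0.71). IFH1, a coactivator, was lower, with 128 and 136 CPM in replicate 2, and 286 and 347 CPM in replicate 1 (-1.26). RAP1, FHL1 and SFP1 did not pass (0.13, -0.55 and 0.27). Among the chaperones and assembly factors RRB1, which binds Rpl3 before assembly, and SQT1, which binds Rpl10, were lower (-1.98 and -1.20). Of 19 translation factors tested 8 were lower, led by YEF3, the fungal elongation factor 3 (-2.55), and 1, SUI1, was higher (0.98). HYP2, which encodes the translation factor eIF5A used by every cell, was listed at 0 in all 4 libraries and was not tested. Of 3 ribosome-bound proteins 2 were called, ASC1 and STM1, both lower (-2.67 and -1.10). LSO2 had a change in the other direction (0.80) and was not called.

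Red and non-red spores were compared with the replicate as a block, which asks whether transcripts differ with mating type. None of the 136 genes passed an FDR of 0.05 in edgeR, where 0.0163% of all genes tested did, and 5 had an unadjusted p under 0.05 (4.54% of all genes tested), 3 of them lower in red spores (1.69% of all genes tested). The median log2 fold change was 0.05 over the family and 0.02 over all genes tested, and 132 of the 136 genes were within 2-fold, as were 90.5% of all genes tested. DESeq2 called 3 genes, RPL28, RPP1A and RPS13, all lower in red spores, where it called 3.62% of all genes tested, and scaling by column totals called 1, RPS29A, where it called 0.0814% of all genes tested. No gene of the 6 lists described above was called between the colors in edgeR.

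The 5 genes with an unadjusted p under 0.05 were RPS28B, RPS29A, RPL28, RPP1A and RPL26B. RPS28B, a small subunit gene, had 28.3 CPM in red and 5.32 in non-red spores of replicate 2, and 90.9 in red and 57.0 in non-red spores of replicate 1 (log2 fold change 1.53 ± 1.23, SD over 2 replicates). RPS29A had 0.213 CPM in red and 26.4 in non-red spores of replicate 2, and 89.0 in red and 115 in non-red spores of replicate 1. Its log2 fold change of -3.46 rested on replicate 2 (-6.92 within replicate 2 and -0.38 within replicate 1). Without red replicate 1 RPS29A passed the threshold (-8.38, FDR 0.000601 in edgeR, with 0.0633% of all genes tested called), in a fit that has no replicate block and leaves red replicate 2 as the only red library. RPL28 (YGL103W, chrVII:310967-311927, plus strand, 1 intron), a large subunit gene that can mutate to cycloheximide resistance, had 17.0 CPM in red and 40.8 in non-red spores of replicate 2, and 24.6 in red and 61.7 in non-red spores of replicate 1. Its ratio was nearly the same in both replicates (-1.29 ± 0.05). An opposite-strand frame covers 89.1% of the coding bases of RPL28, and its mean level of 80.1 CPM per kilobase was among the lowest. The part of this frame in the ratio was not tested. RPP1A had -0.59 and RPL26B 0.69. With all 4 libraries, TMM and the replicate block, the lowest FDR of the 5 in edgeR's likelihood ratio test was 0.832.

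**Figure D4:**
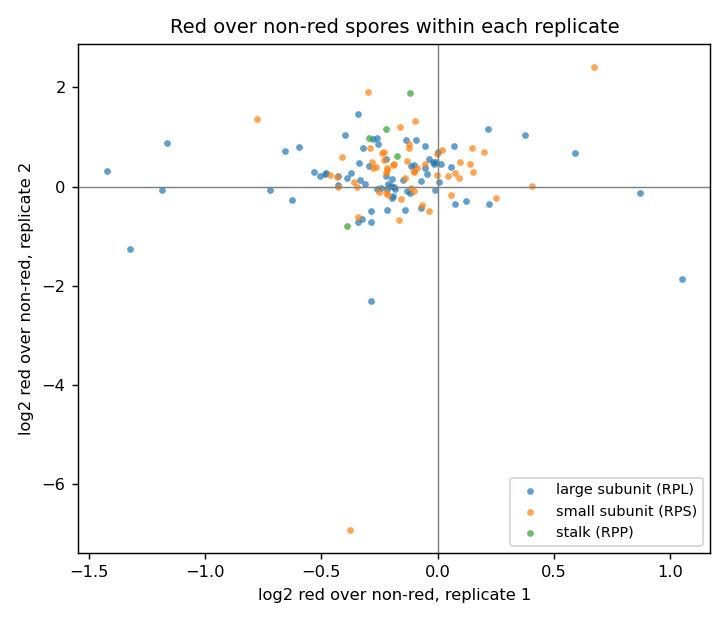
Log2 of red over non-red spores for each ribosomal protein gene tested, within replicate 1 (horizontal axis) and within replicate 2 (vertical axis), colored by subunit. Most genes lie above 0 in replicate 2 and left of 0 in replicate 1, and RPS29A is the low point at -6.92.

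The direction of the small differences was not shared by the replicates. Log2 red over non-red was above 0 in replicate 2 and below 0 in replicate 1 for 75 of the 136 genes, below 0 in both for 36, above 0 in both for 18, and below 0 in replicate 2 and above 0 in replicate 1 for 7. The spread of the ratio over these genes was 0.88 in replicate 2, where RPS29A lay at -6.92, and 0.32 in replicate 1 (SD, log2). Over all genes tested it was 2.03 in replicate 2 and 1.66 in replicate 1. The replicate 2 libraries hold fewer reads on the ribosomal protein genes, and the part of depth and of RPS29A in the spread was not tested. Levels of the 137 genes had a Pearson's r of 0.859 between red and non-red spores in replicate 2 and of 0.928 in replicate 1, and of 0.782 between the red and 0.845 between the non-red libraries of the 2 replicates, as descriptions across genes.

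A and B paralogs were compared as reads per coding length in each library. The A gene was higher in all 4 libraries for 19 of the 59 pairs, the B gene for 19, and 21 pairs had no order shared by all libraries. On average 38 pairs were within 2-fold, and the median size of the log2 ratio was 0.61. The proteins of 21 pairs are identical. In 8 pairs at least 1 member has under 50% of its 50-base words found once in the genome (RPL1, RPL7 and RPL41 among them), so that their ratios are uncertain. Leaving these out gave 16, 16 and 19 pairs of 51. The 4 libraries cannot give an exact p under 0.05 for the order of a pair, and none was computed.

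The largest ratios were those of RPL36, RPL43, RPL33, RPL22, RPL15 and RPS29. RPL36A had 1150 and 511 reads in red and non-red spores of replicate 2, where RPL36B was listed at 0, and log2 A over B was 4.58 and 5.07 in red and non-red spores of replicate 1. RPL43B exceeded RPL43A throughout, with log2 A over B of -5.82 and -4.23 in red and non-red spores of replicate 2, and -4.41 and -6.08 in replicate 1. RPL33A over RPL33B was -3.32 and -3.70 in replicate 2, and -6.86 and -5.65 in replicate 1. RPL22A over RPL22B was -3.37 and -2.62 in replicate 2, and -6.50 and -4.72 in replicate 1. The A genes of these 3 pairs have an opposite-strand frame over most of their coding bases. Such a frame also covers most of RPL15B (52.7%), RPL8A (55.3%), RPL8B (84.7%), RPL12A (62.45%) and RPL12B (89.8%), among others. The part of these frames in the ratios was not tested. RPL15A over RPL15B was 2.74 and 1.84 in replicate 2, and 4.26 and 4.04 in replicate 1. RPS29A over RPS29B was -8.02 and -1.08 in replicate 2, and -1.06 and -0.28 in replicate 1, with a mean of -2.61 that becomes -0.81 without red replicate 2.

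**Figure D5:**
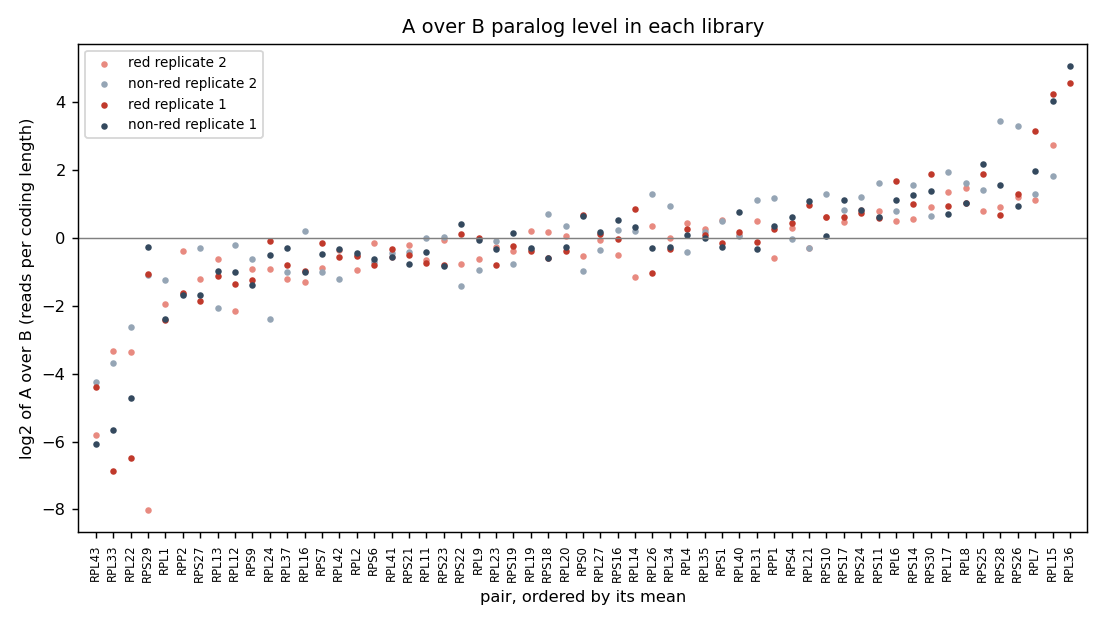
Log2 of A over B reads per coding length for the pairs reported here, ordered by their mean, in red and non-red spores of replicate 2 (light) and of replicate 1 (dark). RPL36 is not drawn for replicate 2, where RPL36B was listed at 0. RPL43, RPL33 and RPL22 lie far below 0 and RPL36 and RPL15 far above.

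The most even pairs were RPL27, RPS0 and RPL20, with mean log2 A over B of -0.02, -0.03 and -0.05. In 10 pairs the member with the higher level differed between the replicates, in both colors. For RPS0, log2 A over B was -0.52 and -0.96 in red and non-red spores of replicate 2, and 0.69 and 0.65 in replicate 1. For RPL26 it was 0.34 and 1.29 in replicate 2, and -1.02 and -0.30 in replicate 1. For RPS22, whose B gene holds a snoRNA in an intron, it was -0.78 and -1.41 in replicate 2, and 0.13 and 0.42 in replicate 1. RPL21, RPL31 and RPS18 changed order likewise, with mean shifts of -1.33, 1.05 and 1.04 in log2 A over B, replicate 2 minus replicate 1. The other 4 were RPL20, RPL27, RPL34 and RPS1. Of these, RPL20, RPL27 and RPL34 were nearly even in red spores of replicate 2, with log2 A over B of 0.07, -0.04 and 0.001. A shift within a pair does not depend on the scaling of the libraries, and its cause was not tested.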

How the data were processed

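Libraries were made from 100 ng of total RNA with an mRNA-seq kit, and the series' design text describes depletion of rRNA. The authors aligned paired reads with STAR 2.7.3a to R64 with mCherry and hph added, and counted them with featureCounts. Per feature, the table they deposited holds estimated counts with no normalization, and 61.7 to 69.3% of non-zero values per library were not whole. The treatment of strand and of reads with several positions is not given in the sources used here. SK1 reads were thus compared with an S288C reference.

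The estimated counts were rounded, filtered with filterByExpr, TMM-normalized and fitted in R 4.3.3 with edgeR 4.0.16 (color and replicate terms, likelihood ratio test, Benjamini-Hochberg adjustment over 6140 genes, prior count 0.125). DESeq2 1.42.0, other scalings, filters and tests, and leaving out each library were alternatives. The floor was 3 counts, or 0.0680 to 0.116 CPM. Replicate numbers pair libraries because sporulation and sorting were repeated, and same-numbered libraries deviated together (r = 0.292 over 6140 genes). Coordinates, coding lengths, 50-base words, opposite-strand frames of at least 100 codons and motifs were taken from the R64 RefSeq genome with Python 3.11.15, whose locus tags match 6047 of 7132 features. Named genes were the 3 highest and 3 lowest per subunit, the 6 most and 3 least uneven pairs, the 10 smallest p per comparison, stalk, ubiquitin fusion and RPL41 genes, pairs changing order between replicates, and genes at or under 3 counts. Results of some genes are not reported here. The members, lists and rules were chosen with earlier results of these data known.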

Additional observations from a re-analysis of the deposited data

Results flagged for a closer look

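The median log2 ratio of red over non-red spores over the 136 ribosomal protein genes was 0.28 in replicate 2 and -0.19 in replicate 1, opposite in sign. The median over all genes tested was 0.02 in replicate 2 and 0.00 in replicate 1. With 1 library of each color in a replicate, the difference between the replicates was not tested.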

How the results depend on the processing

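Between replicates, alternatives to the main settings called between 108 and 125 ribosomal protein genes lower, the 108 coming from the 120 genes with mostly unique sequence, with medians from -1.68 to -1.60. Leaving out each library gave 107 to 121 calls and medians from -1.75 to -1.54. The ratio of read shares ranged from 0.295 to 0.356, and the log2 ratio of the subunit medians from 0.18 to 0.32.

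Between colors, DESeq2 gave 3 calls (of 222 over all genes tested) and column totals 1 (of 5), and the cause was not tested. Without the replicate block there were 0 calls and a median of -0.09, so the block changed no call. Leaving out each library gave 0 to 1 calls, of 2 to 29 over all genes tested, and medians from -1.001 to 1.11, because the fit then has no block and the replicates are unbalanced between the colors. For the same reason red over non-red ranged from -0.18 to 3.48 for RPS28B, -8.38 to 0.76 for RPS29A, -1.97 to 0.68 for RPP1A, -1.43 to 2.89 for RPL26B, -1.77 to 0.71 for RPS13, -1.21 to 0.077 for RPL24B, -0.45 to 2.32 for RPP2A, -0.11 to 1.37 for RPL22B and -1.51 to 0.31 for RPL11A. RPL28 kept its sign (-1.62 to -0.97). RPL36B, RPL39 and RPS29A were at or near the floor in at least 1 library, and the cause was not tested. With 2 cultures no comparison of sporulations has a replicate.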
